A study of Mus musculus with 12 samples.

Results

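Chromatin of Th1 cells was set against that of naive CD4+ T cells, both from mice that lack a super-enhancer of Ets1. Open DNA had been mapped by ATAC-seq, a method that tags accessible chromatin with adapters carried by a transposase. The comparison used 4 of the 12 libraries of the series, chosen by cell type and genotype from their labels: 2 Th1 knockout and 2 naive knockout libraries. Both groups came from spleens of the strain C57BL/6J-Ets1-SE-KO, so both carried the deletion, and neither was wild type. Th1 cells had been cultured for 6 days on plates coated with anti-CD3, with soluble anti-CD28, IL-12 at 10 ng/mL and IL-2 at 1 ng/mL. Naive cells had been purified by negative selection from spleens depleted of red cells, and were not cultured. The Th1 libraries were 2 biological replicates by their titles. For naive cells both libraries are technical replicates from a single biological sample, so their spread holds no difference between animals. Peaks on chromosomes 1 to 19 that overlapped in any of the 4 lists were merged into 74614 regions. Merging all 12 libraries gave 107713. A region is called Th1-only where both Th1 knockout and neither naive knockout library had a peak, and naive-only in the reverse case.

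Naive CD4+ T cells circulate between blood and lymphoid organs in a quiescent state, held there by factors such as TCF1, LEF1, KLF2 and FOXO1. On stimulation through the T cell receptor in the presence of IL-12, STAT4 and T-bet drive them to become Th1 cells, which secrete interferon gamma. ETS1 is a transcription factor of resting T cells that also takes part in the Th1 program, and stimulation brings AP-1 and NFAT factors to enhancers that were closed before.

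The deposited lists hold called peaks, so the number of reads behind them is unknown. Where a library lacks a peak, it can be said only that none was called. The lists held 44864 and 43277 peaks in Th1 knockout libraries and 40118 and 42791 in naive knockout libraries. The groups differed in further ways. Of 4 Y-linked genes, 4 and 4 had a peak in the Th1 knockout libraries and 0 and 0 in the naive knockout libraries, while the wild-type libraries had peaks at 4 of 4 in both cell types. The names of the deposited lists also give the naive and the Th1 libraries different run labels. By these marks the animals' sex, the sequencing run and the cell type cannot be told apart in this comparison. A peak is ranked within its own list by its −log10 q-value, and the rank is given as a percentile, where 100 is the strongest peak of the library. In a design of 2 against 2 libraries the smallest p of an exact permutation test is 0.333, so counts and ranks are given with no test.

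Promoters of 6 genes named in the results are shown. Klrk1 and Havcr2 had a peak in both Th1 knockout libraries only, Pik3ip1, Blnk and Hbb-bs in both naive knockout libraries only, and Ifng in all 4 libraries. The sequences are those of RefSeq on GRCm38.p6, from 250 bases before to 50 after the gene start, and read 5′ to 3′ on the strand of the gene. Klrk1 lies at chr6:129623815-129624114 on the minus strand, Havcr2 at chr11:46454681-46454980 on the plus strand, Pik3ip1 at chr11:3330481-3330780 on the plus strand, Blnk at chr19:40994172-40994471 on the minus strand, Hbb-bs at chr7:103827879-103828178 on the minus strand and Ifng at chr10:118440796-118441095 on the plus strand. Capitals mark matches, on either strand, to the letters TGANTCA (AP-1), GGTGTGA (T-box), TGTGGTT (RUNX), CCGGAAG (ETS), CTTTGAA (TCF/LEF) or TTCNNNGAA (STAT). The matches found here were AP-1 and RUNX in Klrk1 and Havcr2, AP-1 in Hbb-bs and STAT in Ifng.
Klrk1: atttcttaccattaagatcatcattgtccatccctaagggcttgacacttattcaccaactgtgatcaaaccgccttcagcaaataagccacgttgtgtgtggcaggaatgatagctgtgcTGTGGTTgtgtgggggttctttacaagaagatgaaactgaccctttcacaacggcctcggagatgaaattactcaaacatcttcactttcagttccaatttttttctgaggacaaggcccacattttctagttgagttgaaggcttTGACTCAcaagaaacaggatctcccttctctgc
Havcr2: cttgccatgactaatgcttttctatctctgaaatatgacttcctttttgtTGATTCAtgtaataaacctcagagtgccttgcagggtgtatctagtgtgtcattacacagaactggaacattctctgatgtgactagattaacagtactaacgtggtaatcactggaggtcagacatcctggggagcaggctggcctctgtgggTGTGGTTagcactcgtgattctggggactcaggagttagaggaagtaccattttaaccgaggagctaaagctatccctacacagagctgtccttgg
Pik3ip1: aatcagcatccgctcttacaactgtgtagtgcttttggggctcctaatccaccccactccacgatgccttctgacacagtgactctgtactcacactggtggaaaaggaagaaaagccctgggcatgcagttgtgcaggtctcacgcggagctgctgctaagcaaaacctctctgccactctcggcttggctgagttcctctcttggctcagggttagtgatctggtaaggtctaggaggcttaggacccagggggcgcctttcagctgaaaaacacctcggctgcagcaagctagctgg
Blnk: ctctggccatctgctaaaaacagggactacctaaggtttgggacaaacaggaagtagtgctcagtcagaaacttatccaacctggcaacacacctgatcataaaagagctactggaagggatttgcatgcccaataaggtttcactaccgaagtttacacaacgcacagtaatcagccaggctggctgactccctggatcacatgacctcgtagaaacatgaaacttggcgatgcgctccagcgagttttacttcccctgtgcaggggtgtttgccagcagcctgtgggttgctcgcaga
Hbb-bs: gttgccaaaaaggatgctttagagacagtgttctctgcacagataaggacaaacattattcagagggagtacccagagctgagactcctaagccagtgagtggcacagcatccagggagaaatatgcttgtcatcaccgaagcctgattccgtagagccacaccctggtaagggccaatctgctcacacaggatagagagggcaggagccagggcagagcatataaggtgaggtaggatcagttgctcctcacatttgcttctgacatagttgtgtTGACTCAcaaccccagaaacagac
Ifng: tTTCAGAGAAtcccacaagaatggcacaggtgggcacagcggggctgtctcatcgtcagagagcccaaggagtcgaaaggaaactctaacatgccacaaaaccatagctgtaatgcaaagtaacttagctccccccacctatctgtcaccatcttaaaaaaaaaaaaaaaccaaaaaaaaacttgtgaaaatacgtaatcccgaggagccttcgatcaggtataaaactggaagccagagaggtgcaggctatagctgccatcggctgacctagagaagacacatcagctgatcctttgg

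Th1 and naive knockout cells each had many open regions of their own beside a shared set. Of the 74614 regions, 14212 were Th1-only (19% of all), 12244 were naive-only (16.4%) and 17747 had a peak in all 4 libraries (23.8%). The remaining 30411 had a peak in some libraries of a group and not in the other, or in 1 library alone. The Th1 knockout libraries shared 76.7% and 79.0% of their regions with each other, and the naive knockout libraries 87.1% and 81.4%. Between a Th1 and a naive library the shares ran from 47.5% to 53.1%. The lead of Th1-only over naive-only regions depended on the lists: with peaks of q at most 0.01 there were 11350 Th1-only and 12622 naive-only regions.

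**Figure D1:**
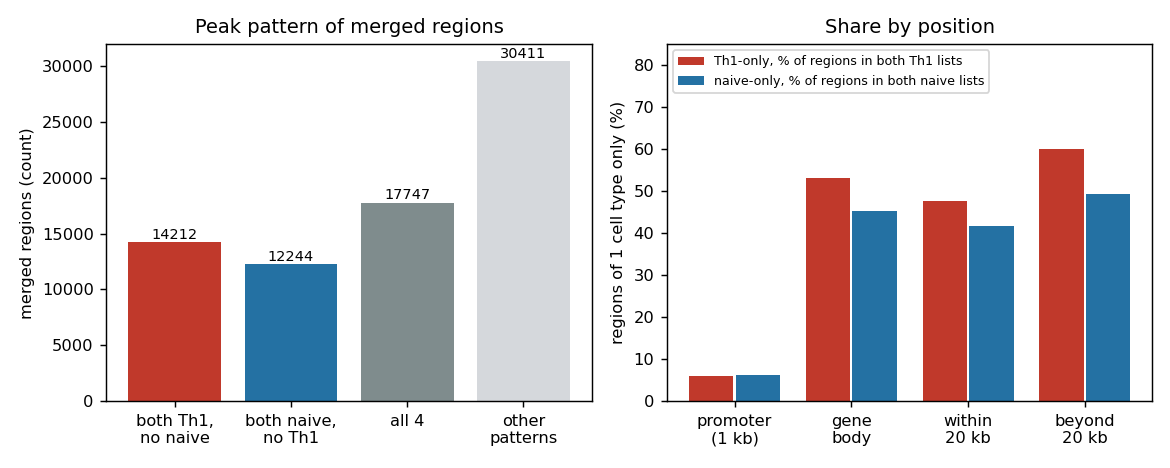
The left panel plots the number of merged regions by peak pattern, and the right panel, by position, the regions of 1 cell type only as a share (%) of all regions present in both of its libraries; both Th1 bars stand left of the naive ones. Promoter bars stand at 6.15% for Th1 and 6.31% for naive, and bars beyond 20 kb of a gene at 60.0% and 49.4%.

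Regions of 1 cell type only were rare at promoters and common elsewhere. At promoters, within 1 kb of a protein-coding gene start, 506 of 8223 regions open in both Th1 knockout libraries were Th1-only (6.15%). The naive-only share there was 538 of 8521 regions (6.31%). In gene bodies the shares were 53.2% Th1-only and 45.3% naive-only, and beyond 20 kb of any protein-coding gene 60.0% and 49.4%. Regions in all 4 libraries had a median width of 753 bp, against 468 bp for Th1-only and 401 bp for naive-only regions. Th1-only regions had median percentiles of 53.6 and 51.7 in the Th1 knockout lists, and naive-only regions 40.6 and 43.8 in the naive knockout lists. Among Th1-only regions 667 (4.69%) ranked in the top 10% of both Th1 lists, and among naive-only regions 190 (1.55%) ranked in the top 10% of both naive lists.

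Most regions open in all 4 libraries (88.6%) did not meet the rank rule given below in either direction. The median difference in percentile, Th1 minus naive, was -3.20 points, and the lowest 10% of regions lay below -31.5 and the highest 10% above 23.0. The 2 libraries of a group differed by a median of 9.41 points in Th1 cells and 5.28 in naive cells, whose libraries are technical replicates. The group means differed by a median of 11.3 points. A mean of 2 libraries averages over their spread, so this value and those between single libraries are unlike measures. A region was called higher in Th1 where its lowest Th1 percentile exceeded its highest naive percentile by at least 25 points, and lower in the reverse case. By this rule 822 of the 17747 shared regions ranked higher in Th1 knockout cells (4.63%) and 1196 ranked lower (6.74%). Promoters made up 13.7% of those that ranked higher and 17.0% of those that ranked lower, against 42.4% of all shared regions.

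Genes of the Th1 program held Th1-only regions at about the share of all protein-coding genes. Counting a gene with 20 kb on each side, 37 of the 95 regions open in both Th1 knockout libraries near 24 Th1 genes were Th1-only (38.9%), where the share over all protein-coding genes was 38.3%. The naive-only share near the same genes was 35 of 97 (36.1%), where it was 33.1% over all protein-coding genes. At least 1 Th1-only region lay near 17 of the 24 genes and at least 1 naive-only region near 15, with medians of 1 and 1 per gene. Over all protein-coding genes 36.5% had a Th1-only and 36.2% a naive-only region, with medians of 0 and 0. The list held genes that differed in opposite ways. Stat4, Il12rb2 and Il18rap had the most Th1-only regions, while the other IL-12 and IL-18 receptor chains, Il12rb1 and Il18r1, had 1 each, with 1 and 2 naive-only regions. Counts for single genes depend on the window: with 5 kb on each side, 99 of the 246 counts above 0 over 147 genes were lower by over 1.5 times, and 44 of these were 0.

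Stat4 (NCBI gene 20849, chr1:51987106-52107189) encodes the transcription factor that IL-12 activates. It had peaks in 17 and 17 regions in Th1 knockout libraries, against 8 and 11 in naive knockout libraries, with 9 Th1-only regions and 1 naive-only region. The Stat4 start at 52008240 went the other way, with peaks at percentiles 74.8 and 73.4 in naive knockout cells. Among Th1 knockout libraries only the first had a peak there, at 34.0. The start at 51987148 had no peak within 1 kb in the 4 libraries. The strongest Th1-only region of Stat4 lay in the gene body at chr1:52066191-52066998, at percentiles 94.8 and 91.3, and also had a peak in both Th1 wild-type and neither naive wild-type library. Il18rap, the accessory chain of the IL-18 receptor, had 5 and 6 regions in Th1 knockout libraries, against 1 and 1 in naive knockout libraries, with 4 Th1-only and 0 naive-only. Its region at chr1:40516092-40516804, which touches the promoter, stood at percentiles 93.4 and 94.5. Il12rb2, the inducible chain of the IL-12 receptor, was open in both cell types, in part with different regions. It had 13 and 16 regions in Th1 knockout libraries, against 9 and 10 in naive knockout libraries. Of these regions 6 were Th1-only, 4 were naive-only and 4 had a peak in all 4 libraries. The Th1-only region of Il12rb2 at chr6:67396081-67396538, within 20 kb of the gene, stood at percentiles 86.1 and 89.2, and its naive-only region at chr6:67339466-67339841, in the gene body, at 79.4 and 72.7.

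Ifng (NCBI gene 15978, chr10:118441046-118445894), which encodes interferon gamma, had peaks in 4 and 4 regions in Th1 knockout libraries and 4 and 4 in naive knockout libraries. Its promoter region chr10:118440657-118441244, whose sequence is given above, had a peak in all 4 libraries. It ranked at percentiles 61.8 and 62.4 in Th1 knockout cells, against 9.5 and 25.4 in naive knockout cells, so both Th1 values lay above both naive ones. In the window of 1 kb around the start, which a second region touches, the strongest naive peaks stood at 9.5 and 36.2. Both Th2 knockout libraries, whose titles and source names conflict, lacked a peak in this Ifng region. The Th2 wild-type libraries had 0 and 0 peaks within 1 kb of the gene. Of the other Ifng regions 2 were Th1-only and 3 naive-only, and within 5 kb of the gene 0 and 1. The Th1-only region chr10:118458603-118459186 stood at percentiles 42.7 and 77.2, and the naive-only region chr10:118461378-118461863 at 53.4 and 51.1. Tbx21, which encodes T-bet, had 5 and 4 regions in Th1 knockout libraries, against 1 and 2 in naive knockout libraries, but only 1 of them was Th1-only and 0 were naive-only. Within 5 kb Tbx21 had 0 of either class, and without the second Th1 library it had 3 Th1-only regions. Ccl5, a chemokine of effector T cells, had 0 regions of either class, and its shared region chr11:83550167-83550790 ranked at 97.7 and 85.1 in Th1 knockout cells, against 22.8 and 34.2 in naive knockout cells.

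Other genes of the Th1 list had more naive-only regions, or a higher rank in naive cells. Ifngr1, the ligand-binding chain of the interferon gamma receptor, had 3 and 4 regions in Th1 knockout libraries, against 7 and 7 in naive knockout libraries, with 0 Th1-only and 4 naive-only, of which 1 lay within 5 kb of the gene. At the promoter of Fasl, the death ligand of activated T cells, the peak ranked at percentiles 18.3 and 38.0 in Th1 knockout cells, against 94.4 and 95.3 in naive knockout cells. At the promoter of Txk, a kinase of the Tec family, it ranked at 32.0 and 59.0 in Th1 knockout cells, against 99.8 and 99.9 in naive knockout cells. Both promoters had a peak in every library, and the groups did not overlap in rank. Over all 9400 promoters with a peak in the 4 libraries, both Th1 values lay below both naive ones at 35.9% and above them at 18%, and by at least 25 points at 2.35% and 1.16%.

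Among cytotoxic and NK receptor genes, 21 of the 50 regions open in both Th1 knockout libraries were Th1-only (42.0%, against 38.3% over all protein-coding genes) and 15 of the 45 open in both naive knockout libraries were naive-only (33.3%, against 33.1%). Gzmk, a granzyme gene, had 4 and 5 regions in Th1 knockout libraries, against 1 and 1 in naive knockout libraries, and 3 were Th1-only. Its region chr13:113183191-113183899 stood at percentiles 93.3 and 93.4. Klrd1, which encodes the CD94 chain of NK receptors, had 4 Th1-only and 2 naive-only regions, and Gzmb, another granzyme gene, 1 and 0. Within 5 kb these counts were 2 and 1 for Klrd1 and 0 and 0 for Gzmb. Itga1, the alpha 1 integrin chain of tissue T cells, had 11 and 10 regions in Th1 knockout libraries, against 3 and 5 in naive knockout libraries, with 5 Th1-only and 0 naive-only (3 and 0 within 5 kb). Genes that mark CD8 and NK cells did not all go one way. Counted within 1 kb of the gene, Cd8a had 0 and 0 peaks in Th1 knockout libraries, against 1 and 1 in naive knockout libraries, and Ncr1 had 0 in all 4. With 20 kb on each side, Cd8b1 had 1 and 1 regions in Th1 knockout libraries, against 4 and 5 in naive knockout libraries. Klrb1c, the NK1.1 antigen gene, had 6 and 7 in Th1 knockout libraries, against 8 and 7 in naive knockout libraries, and Klrd1 had 6 and 8, against 5 and 5.

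Genes of the naive and quiescent state held the largest share of naive-only regions among the T cell lists. Near 23 such genes 108 of the 212 regions open in both naive knockout libraries were naive-only (50.9%, against 33.1% over all protein-coding genes), and 63 of the 146 open in both Th1 knockout libraries were Th1-only (43.2%, against 38.3%). There were more naive-only than Th1-only regions at 15 of the 23 genes and fewer at 5, with medians of 2 Th1-only and 4 naive-only regions per gene. Of 20665 protein-coding genes, 4918 had more naive-only and 4881 more Th1-only regions, with medians of 0 and 0.

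Lef1 (NCBI gene 16842, chr3:131110297-131224357), a partner of TCF1 in naive T cells, had the most naive-only regions of the list after Foxp1. It had peaks in 7 and 10 regions in Th1 knockout libraries, against 20 and 21 in naive knockout libraries, with 2 Th1-only and 12 naive-only regions. The naive-only regions of Lef1 included chr3:131156328-131156708 at percentiles 25.28 and 34.95, which lies at an internal start of the gene (131156294), and chr3:131157423-131157834 in the gene body at 88.82 and 84.98. The start at 131112791 had a peak in all 4 libraries and ranked the other way, at 75.6 and 61.5 in Th1 knockout cells, against 38.7 and 51.1 in naive knockout cells. The other Lef1 starts had no peak within 1 kb in these libraries. A Th1-only region of Lef1, chr3:131168824-131169656, ranked at 97.08 and 89.98 in Th1 knockout cells, so opening was not all one way at this gene. Satb1, a chromatin organizer of T cells, had 7 and 7 regions in Th1 knockout libraries, against 13 and 15 in naive knockout libraries, with 1 Th1-only and 6 naive-only. Satb1 has 5 annotated starts, and the one at 51826588 had a peak in all 4 libraries, at percentiles 10.2 and 6.1 in Th1 knockout cells, against 57.2 and 65.4 in naive knockout cells. The starts at 51832647 and 51833290 differed by less, at 30.1 and 40.7 in Th1 knockout cells, against 60.6 and 62.6 in naive knockout cells, and the other two had no peak.

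**Figure D2:**
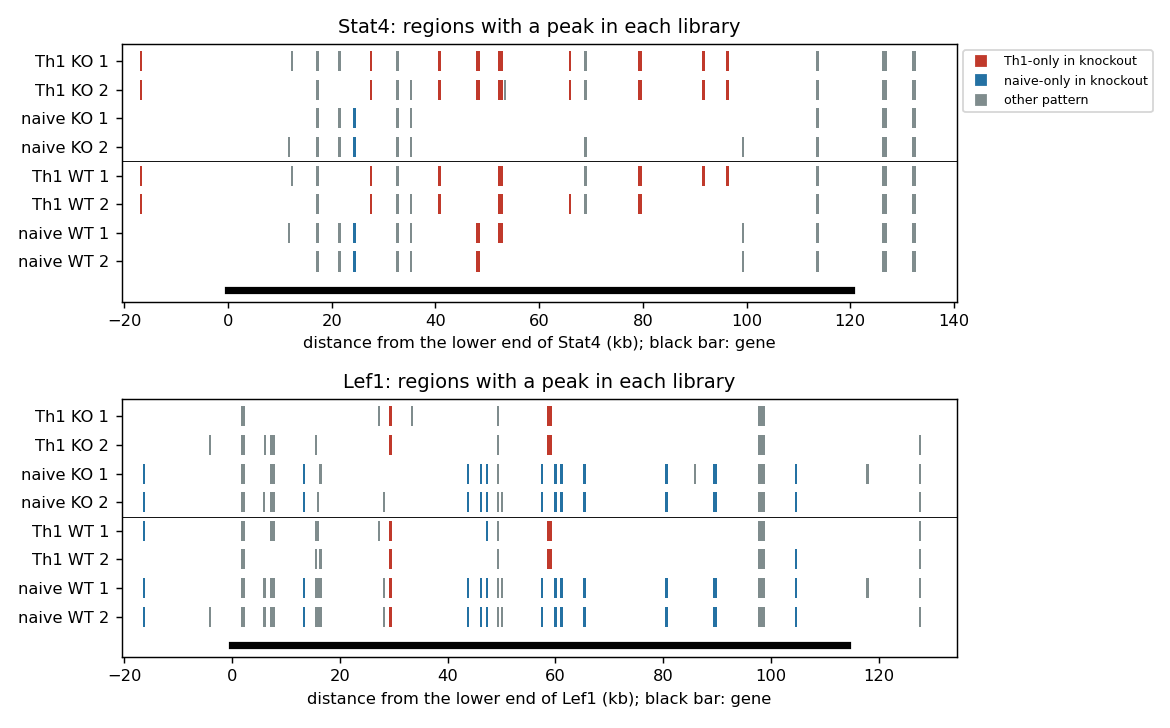
Each tick is a region with a peak in that library, by distance (kb) from the lower end of the gene, at Stat4 (top) and Lef1 (bottom), with Th1 knockout rows above naive knockout rows and wild-type libraries below the line; colours give the pattern in the knockout. Stat4 shows 9 Th1-only and 1 naive-only region, and Lef1 2 and 12.

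Several other naive genes held regions of both classes, some of them in like numbers. Tcf7, which encodes TCF1, had 6 and 6 regions in Th1 knockout libraries, against 7 and 9 in naive knockout libraries, with 3 Th1-only and 4 naive-only. Its naive-only region chr11:52275361-52275872 stood at percentiles 73.5 and 81.5, while a Tcf7 promoter region, chr11:52282880-52283626, was Th1-only at 35.07 and 24.99. Foxo1 had 3 Th1-only and 4 naive-only regions, Ccr7, the chemokine receptor of lymph node entry, 3 and 2, and Bach2, a repressor of effector genes, 12 and 11. Foxp1, a quiescence factor, had 11 Th1-only and 18 naive-only regions. Il7r, the receptor chain for the survival cytokine IL-7, had 3 Th1-only regions and 1 naive-only region, chr15:9533274-9533820, at percentiles 92.4 and 93.8 in the naive knockout lists. Klf2, a factor of migration and quiescence, had 3 Th1-only regions and 1 naive-only region. Its promoter stood at percentiles 78.3 and 72.9 in Th1 knockout cells, against 95.2 and 94.9 in naive knockout cells. The shared Klf2 region chr8:72330802-72331505 ranked the other way, at 89.4 and 97.0 in Th1 knockout cells, against 9.7 and 45.7 in naive knockout cells. Within 5 kb, Ccr7 had 1 Th1-only and 0 naive-only regions, Il7r 1 and 1, and Klf2 3 and 0.

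T cell receptor and identity genes had shares of 42.1% Th1-only (56 of 133) and 42.7% naive-only (73 of 171). Over all protein-coding genes the shares were 38.3% and 33.1%. Of their 68 regions in all 4 libraries, 10 ranked lower in Th1 knockout cells (14.7%, against 6.28% of the shared regions near all protein-coding genes) and 3 ranked higher. The promoter of Zap70, the kinase that docks on the receptor, ranked at percentiles 37.7 and 27.2 in Th1 knockout cells, against 81.0 and 85.5 in naive knockout cells. That of Cd3g, a chain of the receptor complex, ranked at 16.40 and 27.02 in Th1 knockout cells, against 72.7 and 86.9 in naive knockout cells. Cd6, a coreceptor, had 1 Th1-only and 6 naive-only regions (0 and 3 within 5 kb), and Fyn, a Src-family kinase, 8 and 5. Markers of T cells themselves were open in both groups, with 3 and 1 peaks at Cd4 and 2 and 1 at Cd3e in Th1 knockout cells, against 2 and 1 at Cd4 and 3 and 2 at Cd3e in naive knockout cells.

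Near 12 effector differentiation factors 33 of 73 regions were Th1-only (45.2%) and 16 of 49 naive-only (32.7%). The shares over all protein-coding genes were 38.3% and 33.1%. Bhlhe40, a factor that supports cytokine secretion, had 6 and 6 regions in Th1 knockout libraries, against 2 and 2 in naive knockout libraries, with 4 Th1-only regions and 1 naive-only region (2 and 1 within 5 kb). Prdm1, which encodes BLIMP-1, had 4 and 3, and its Th1-only region chr10:44432135-44432638 ranked at 98.0 and 94.9. Among AP-1, BATF and IRF factors the shares were 32.2% Th1-only and 23.6% naive-only. Batf3 had 10 and 9 regions in Th1 knockout libraries, against 4 and 2 in naive knockout libraries, with 4 Th1-only and 0 naive-only (1 and 0 within 5 kb). Irf4, a factor that receptor signals induce, had 1 Th1-only and 4 naive-only regions (0 and 2 within 5 kb). Nfatc2, a calcium-dependent factor, had 8 Th1-only regions and 1 naive-only region, although the list of NFAT, NR4A and EGR factors stood at 27.7% and 20.4%. The Nfatc2 region chr2:168491696-168492485 ranked at percentiles 97.3 and 99.1 in the Th1 knockout lists.

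Among activation and costimulation genes the shares were 39.5% Th1-only and 39.1% naive-only, against 38.3% and 33.1% over all protein-coding genes. Il2ra, the alpha chain of the IL-2 receptor, had 6 Th1-only and 3 naive-only regions, and Icos, a costimulatory receptor, had 1 and 5. Within 5 kb these counts were 3 and 3 for Il2ra and 1 and 2 for Icos. Among JAK, STAT and SOCS genes the shares were 36.8% and 25.9%, and among trafficking genes 42.9% and 40.8%. Cxcr4, a chemokine receptor of resting T cells, had 5 and 5 regions in Th1 knockout libraries, against 10 and 10 in naive knockout libraries, with 0 Th1-only and 5 naive-only, of which 1 lay within 5 kb of the gene.

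Genes of other helper lineages had higher Th1-only shares than the Th1 genes did, on few regions. Near 15 Th2 genes 30 of 54 regions were Th1-only (55.6%) and 16 of 39 naive-only (41.0%). Near 10 Th17 genes the counts were 22 of 40 (55.0%) and 11 of 29 (37.9%). All protein-coding genes stood at 38.3% Th1-only and 33.1% naive-only. Il4ra, a receptor chain for IL-4, had 5 Th1-only and 3 naive-only regions, and Il10, an anti-inflammatory cytokine gene, 3 and 1. Within 5 kb these counts were 2 and 1 for Il4ra and 1 and 0 for Il10. Rora, a nuclear receptor gene, had 19 and 20 regions in Th1 knockout libraries, against 12 and 12 in naive knockout libraries, with 9 Th1-only and 3 naive-only. Gata3, the factor that directs Th2 cells and is also needed in T cells in general, had 0 Th1-only regions and 1 naive-only region. Regulatory T cell genes stood at 44.3% and 37.7%, and follicular helper genes at 48.3% and 43.8%. Cell cycle genes were at 17.4% and 20.8%, glycolysis genes at 22.6% and 21.5%, and housekeeping genes at 16.7% and 13.9%, all below the shares over all protein-coding genes. Within these low lists, Cdk6, a kinase of the G1 phase, had 6 Th1-only and 2 naive-only regions, and Hk2, the inducible hexokinase, 5 and 1.

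**Figure D3:**
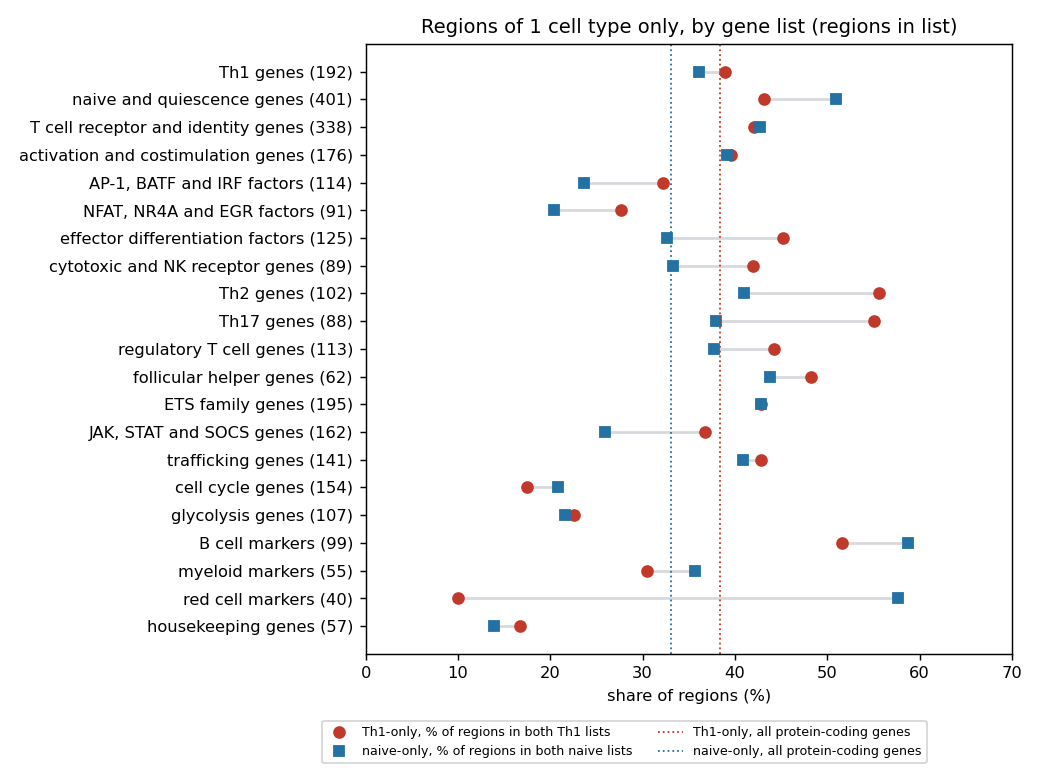
For each gene list the red circle gives the Th1-only share (%) of the regions open in both Th1 knockout libraries and the blue square the naive-only share of those open in both naive knockout libraries; dotted lines mark the shares over all protein-coding genes, 38.3% and 33.1%. The naive and quiescence genes reach 43.2% and 50.9%, and the red cell markers 10.0% and 57.7%.

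At the targeted locus, of all stretches between neighbouring regions of the 4 knockout libraries, the one with most wild-type peaks was picked. It spans 30.6 kb from 32897838 to 32928447 on chromosome 9. The lack of peaks in these 4 libraries follows from that choice. The Th1 wild-type libraries had 7 and 5 peaks there and the naive wild-type libraries 7 and 7. The Th2 knockout libraries, which did not set its bounds, had 0 and 0. Ets1 itself (NCBI gene 23871, chr9:32636241-32757820) was open in both knockout cell types. It had 12 and 14 regions in Th1 knockout libraries, against 16 and 20 in naive knockout libraries, with 4 Th1-only and 9 naive-only. A Th1-only region of Ets1 at chr9:32745029-32745601 stood at percentiles 70.4 and 82.1, and a naive-only one at chr9:32731768-32732326 at 88.0 and 81.5. In the same window of Ets1 the wild-type libraries had 13 and 11 regions in Th1 cells and 19 and 19 in naive cells. More than 20 kb beyond the end of Ets1, up to 300 kb, there were 21 regions, of which 11 were Th1-only, 5 naive-only and 0 in all 4 libraries. Over all merged regions 19% were Th1-only, 16.4% naive-only and 23.8% in all 4 libraries. Beyond 20 kb of any protein-coding gene, 3481 of 14454 regions were Th1-only and 2678 naive-only. Whether this stretch differs from such regions was not tested. Over 12 ETS family genes the Th1-only share was 36 of 84 regions (42.9%, against 38.3% over all protein-coding genes) and the naive-only share 42 of 98 (42.9%, against 33.1%). Etv6, a repressor of the family, had 15 Th1-only and 5 naive-only regions, Fli1, the neighbour of Ets1, 7 and 9, and Elk4, a cofactor of serum response factor, 1 and 5 (0 and 1 within 5 kb).

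Of 20085 promoters of 16457 genes, 405 had a peak in both Th1 knockout and neither naive knockout library (2.02%), and 384 the reverse (1.91%). Klrk1, the activating receptor NKG2D, had promoter percentiles of 81.5 and 86.2 in Th1 knockout cells and no peak in naive knockout cells. Havcr2, the inhibitory receptor TIM-3, had 71.2 and 69.0, and Tnfrsf9, the costimulatory receptor 4-1BB, 40.03 and 54.51, with no promoter peak in naive knockout cells. In the other direction, Pik3ip1, an inhibitor of PI3 kinase in resting T cells, had 56.1 and 63.3 in naive knockout cells and no promoter peak in Th1 knockout cells. Il18rap, whose promoter had a peak in all 4 libraries, stood at 93.4 and 94.5 in Th1 knockout cells, against 47.6 and 54.9 in naive knockout cells, and its Th1 values are those of the Th1-only region named before. Nkg7, a granule gene of cytotoxic cells, stood at 81.8 and 48.9 in Th1 knockout cells, against 4.2 and 1.1 in naive knockout cells. The groups did not overlap at Il18rap and Nkg7, as at 53.9% of all promoters with a peak in the 4 libraries.

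**Figure D4:**
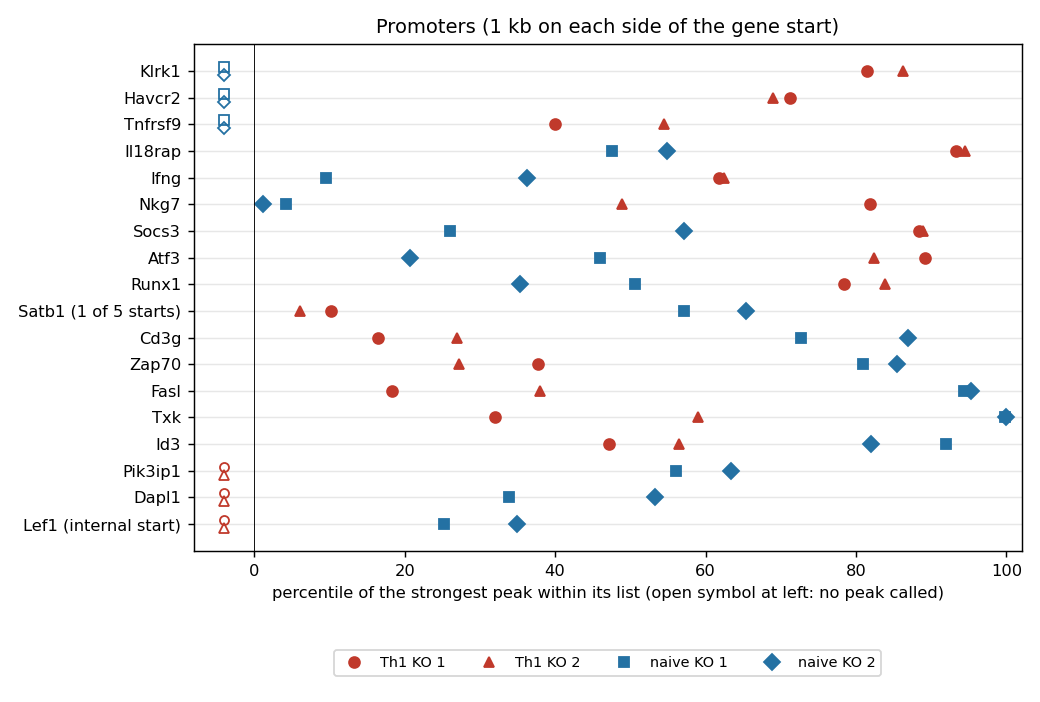
The percentile of the strongest peak within 1 kb of the gene start is plotted for 18 promoters, with Th1 knockout libraries in red and naive knockout libraries in blue; open symbols at the left mark no called peak. Klrk1, Havcr2 and Tnfrsf9 lack naive peaks, Pik3ip1, Dapl1 and the internal start of Lef1 lack Th1 peaks, and the other 12, chosen for gaps of at least 25 points, do not overlap; for genes with several starts 1 is drawn.

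The promoter sequences given above can be read against all promoters. Among windows of 300 bases that themselves held a peak, the AP-1 letters TGANTCA stood in 16% of 275 Th1-only windows, 5.78% of 346 naive-only windows and 3.91% of 8459 windows open in all 4 libraries, against 7.06% of all 20085 windows and 9.74% of the 9522 with no peak. The RUNX letters TGTGGTT stood in 7.64%, 5.49% and 3.29%, against 4.77% of all and 6.14% of those with no peak. The ETS letters CCGGAAG stood in 4.36% of Th1-only and 4.34% of naive-only windows, below the 23.5% of windows open in all 4 libraries and the 11.9% of all, and above the 2.75% of those with no peak. The shares for the STAT letters TTCNNNGAA were 8.73%, 4.34% and 6.66%, against 7.78% of all and 9.08% of those with no peak. For the T-box letters GGTGTGA they were 5.45%, 4.05% and 3.04%, against 3.67% of all and 4.09% of those with no peak. For the TCF/LEF letters CTTTGAA they were 4.00%, 3.76% and 3.05%, against 4.45% of all and 5.85% of those with no peak. The median ratio of observed to expected CpG was 0.664 in Th1-only, 0.407 in naive-only and 0.820 in shared windows. These matches are letters in a window and show no binding.

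Over all protein-coding genes, 447 had at least 5 Th1-only regions, 391 had at least 5 naive-only regions, and 109 had both. The genes named next had the most, and a count of this kind is higher where a gene has many regions. Inpp4b, a phosphoinositide phosphatase, had 21 Th1-only and 13 naive-only regions among 67 regions, and Lpp, a cytoskeletal adaptor, 20 and 13 among 64. Some genes lay to 1 side: Fggy, a carbohydrate kinase gene, had 26 and 25 regions in Th1 knockout libraries, against 4 and 5 in naive knockout libraries, with 18 Th1-only regions and 1 naive-only region. Its gene body held the longest run of neighbouring Th1-only regions, 9 regions from 95707871 to 95754014 on chromosome 4. Atxn1, a transcriptional corepressor gene, had 19 and 2. In the other direction Prkce, a protein kinase C gene, had 3 and 18, Sgms1, a sphingomyelin synthase gene, 9 and 19, and Fryl, a gene related to furry, 0 and 12.

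The wild-type libraries were not used to choose the regions. Of the Th1-only regions 80.6% and 64.9% had a peak in the Th1 wild-type libraries, against 7.22% and 8.71% in the naive wild-type libraries. Of the naive-only regions 11.97% and 6.72% had a peak in the Th1 wild-type libraries, against 76.5% and 78.0% in the naive wild-type libraries. When knockout and wild-type lists were merged, 7614 regions were Th1-only in both genotypes, which is 54.0% of the 14111 Th1-only regions of the knockout and 77.2% of the 9867 of the wild type. There were 7317 regions naive-only in both, 60.6% of the 12076 of the knockout and 34.1% of the 21488 of the wild type. The wild-type lists held 43251 and 33993 peaks in Th1 and 51262 and 54831 in naive cells. The part of list length in these counts was not tested. Opposite calls were 65 regions Th1-only in knockout and naive-only in wild-type cells, and 11 the other way. All 4 of the Th1 and naive wild-type libraries had peaks at the Y-linked genes, 7 and 6 in Th1 and 4 and 4 in naive cells. Xist had 0 and 0 peaks in Th1 wild-type libraries, against 2 and 2 in naive wild-type libraries.

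Most Th1-only regions were also open in polarized cells of the other kind. The Th2 knockout libraries had been cultured with IL-4 and anti-interferon gamma, and their titles name Th1 while their source names give Th2 cells. They had a peak in 83.2% and 80.9% of the Th1-only regions and in 14.3% and 12.9% of the naive-only regions. The Th2 wild-type libraries, titled Th2, had a peak in 81.5% and 80.7% of the Th1-only and 15.3% and 13.4% of the naive-only regions. Of the Th1-only regions 1713 (12.1%) had a peak in neither Th2 knockout library. Of the regions in all 4 libraries 95.3% and 93.9% had a peak in the Th2 knockout libraries.

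**Figure D5:**
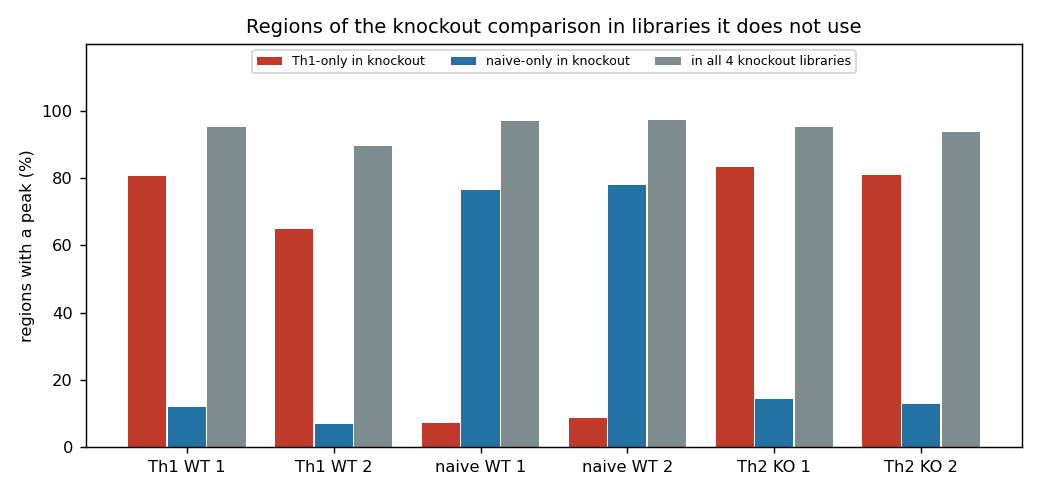
Bars give the share (%) of Th1-only (red), naive-only (blue) and shared (grey) knockout regions that had a peak in each of 6 libraries not used to call them. Red bars stand at 64.9% or more in Th1 wild-type and Th2 knockout libraries and at 8.71% or less in naive wild-type libraries, and blue bars stand the other way round.

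Markers of red cells had more regions in naive knockout libraries, while those of B and myeloid cells did not all go one way. The Th1-only and naive-only shares were 10.0% and 57.7% for red cell, 51.6% and 58.7% for B cell and 30.4% and 35.7% for myeloid markers. Over all protein-coding genes they were 38.3% and 33.1%. Of 10 red cell markers, 9 and 9 had a region in Th1 knockout libraries and 10 and 10 in naive knockout libraries, and the regions summed over genes were 13 and 16 in Th1 and 36 and 45 in naive knockout libraries. At Hbb-bs, an adult beta-globin gene, the Th1 knockout libraries had 0 and 0 peaks, against 2 and 2 in naive knockout libraries, and Slc4a1, the band 3 anion exchanger of red cells, had 0 and 0 against 2 and 3. The promoter of Klf1, also on the red cell list, had a peak in both Th1 knockout libraries, at percentiles 76.2 and 78.3. Among naive knockout libraries only the second had a peak there, at 68.4. For 12 B cell markers the sums were 44 and 42 in Th1 knockout libraries and 52 and 61 in naive knockout libraries, over 9 and 11 against 12 and 12 genes. The defining B cell genes Ms4a1 and Cd79b had 0 and 0 peaks each in Th1 knockout libraries. In naive knockout libraries Ms4a1 had 1 and 1 peaks and Cd79b had 1 and 2. Ebf1, a B cell factor gene in a long locus, held 12 of the 16 Th1-only regions of that list, with 4 naive-only ones. The promoter of Blnk, a B cell adaptor, had percentiles of 65.3 and 59.6 in naive knockout cells and no peak in Th1 knockout cells. With 20 kb on each side Blnk had 4 and 4 regions in each group, with 2 Th1-only and 2 naive-only. For 12 myeloid markers the sums were 32 and 26 in Th1 knockout libraries, against 34 and 36 in naive knockout libraries. Within 1 kb of the gene, Csf1r had 0 and 0 peaks in Th1 knockout libraries, against 1 and 1 in naive knockout libraries, Itgam 1 and 1, against 3 and 2, and Lyz2 0 in all 4. The promoters of Fcgr3 and Itgam had no peak in Th1 knockout cells, and stood at percentiles 70.9 and 81.9 and at 23.5 and 27.6 in naive knockout cells. With 20 kb on each side Itgam had 5 Th1-only and 3 naive-only regions. In the same window Cd14 had 5 and 3 regions in Th1 knockout libraries, against 2 and 3 in naive knockout libraries. The part of these markers in the naive-only counts was not tested, and in bulk libraries fewer cells of a type and less open DNA per cell cannot be told apart.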

How the data were processed

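Per the labels' protocols, ATAC-seq used 50000 cells per reaction and paired reads of 38 bp. Per the submitters' processing notes, the authors used BWA, Picard, MACS2 and GRCm38, with no version or setting stated. The deposited lists give each peak a score, a fold enrichment ratio, a −log10 p-value and a −log10 q-value, and the highest q-value was 0.0942 to 0.0990 in the 4 lists. These values are the authors' own and only rank peaks within a list.

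An overlap of 1 bp placed a peak in a region, and a region took the highest percentile of its peaks. Genes and promoters came from RefSeq GRCm38.p6, where 294 of 298 list entries could be used. The 21 gene lists, the members and the comparison were chosen with earlier results of these data known. Named were the 4 genes per list and 10 overall with most regions of a class, and 19 chosen genes; some are not reported here. Named promoters, single marker genes and the Ifng sequence were chosen after their values were seen. Equal lists, a q-value of at most 0.01, other windows, merging, chromosome X, ranking by fold and leaving out each library were tried. On simulated data of 74614 regions 200 of 200 planted Th1-only regions were found. They were planted to meet the rule exactly, so this outcome was fixed in advance and checks only the code. Tools were pandas 2.3.3, numpy 2.4.6, matplotlib 3.10.9 and scipy 1.17.1 under Python 3.11.15.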

Additional observations from a re-analysis of the deposited data

Results flagged for a closer look

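Fyn differed in direction between genotypes. The mean number of its regions in Th1 minus that in naive libraries was 3 in the knockout and -5 in the wild type. Fyn had 17 and 16 regions in Th1 knockout libraries, against 13 and 14 in naive knockout libraries, and 16 and 12 in Th1 wild-type libraries, against 19 and 19 in naive wild-type libraries. The wild-type lists held 51262 and 54831 peaks in naive and 43251 and 33993 in Th1 cells, and the region counts were not adjusted for this. The difference between genotypes was not tested.

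Hbb-bh1, an embryonic beta-globin gene, also differed in direction, with a mean difference of -3 in the knockout and 1 in the wild type. It had 1 and 1 regions in Th1 knockout libraries, against 4 and 4 in naive knockout libraries, and 1 and 1 in Th1 wild-type libraries, against 0 and 0 in naive wild-type libraries. With 5 kb on each side it had 0 regions of 1 cell type only, since its naive-only regions lie farther off, in a window that also takes in the promoter of Hbb-bs. This difference was not tested either.

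Peaks at Y-linked genes, on a chromosome the comparison does not use, numbered 10 and 9 in the Th1 knockout libraries, against 0 and 0 in the naive knockout libraries. Xist, a gene of X inactivation, had 0 and 0 peaks in Th1 knockout libraries, against 3 and 3 in naive knockout libraries. It also had 0 and 0 in Th1 wild-type libraries, against 2 and 2 in naive wild-type libraries, where the Y-linked genes had peaks in both cell types.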

How the results depend on the processing

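The number of reads per library is unknown, so the depth that limits peak calling could not be weighed. Leaving out each library in turn gave 14915 to 21787 Th1-only regions (21787 without the second Th1 library), 14429 to 18008 naive-only regions and 18437 to 19928 regions in all remaining libraries. It gave 1282 to 1627 shared regions ranking higher and 1551 to 3119 ranking lower in Th1 (3119 and 3051 without the first and the second Th1 library). It gave 475 to 653 Th1-only and 478 to 594 naive-only promoters. Fewer libraries then have to meet the rule. Without the first naive library the counts were 14915 Th1-only and 18008 naive-only, and without the second 15390 and 16206, so the lead of Th1-only regions turned round. With a rank gap of 40 points 329 regions ranked higher and 412 lower. With 40118 peaks from each list there were 12830 Th1-only, 12554 naive-only and 16629 shared regions, with 350 and 435 promoters. Shared regions were 12470 where a peak had to cover at least 50% of the region, a setting chosen after seeing the data. The lead also turned round with q at most 0.01 (11350 and 12622). Merging within 200 bp, adding chromosome X, a promoter window of 500 bp and ranking by fold moved no count by over 1.5 times. The planned overlap rule is met by every peak, so it gave identical counts. For the genes with most regions overall and those always named, 384 of 432 counts under 6 alternatives, the 5 kb gene window included, stayed within 1.5 times. Over all 147 named genes that window lowered 99 of 246 counts by more than this. Of 264 list shares 255 stayed within 1.5 times, and 246 within the 95% exact binomial interval of the share as reported. No paired analysis was made, since the naive libraries are technical replicates of 1 biological sample. The names of the deposited lists give the label KO2 to both naive libraries and to the second Th1 library. Whether these came from the same animal is not stated.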

Other observations

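At 3 antigen receptor loci, chosen after their values were seen, the variable segments held more naive-only than Th1-only regions. Over all merged regions 19% were Th1-only and 16.4% naive-only. In the immunoglobulin heavy chain variable segments of chromosome 12, 5 of 63 regions were Th1-only (7.94%) and 19 naive-only (30.2%). In the T cell receptor alpha variable segments of chromosome 14 there were 4 of 39 (10.3%) and 15 (38.5%), and in the beta segments of chromosome 6 there were 4 of 44 (9.09%) and 9 (20.45%). The longest run of neighbouring naive-only regions, 8 regions, lay among the immunoglobulin segments from 115790497 to 115952850 on chromosome 12. Over the immunoglobulin segments the Th1 knockout libraries had 29 and 20 regions, against 39 and 40 in the naive knockout libraries, and the Th1 wild-type libraries 31 and 21, against 49 and 50 in the naive wild-type libraries.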
